A study of Mus musculus with 2 samples.

Results

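Wide reproducible footprints of the mouse left cerebral cortex are stretches of at least 30 bp that were protected from DNase I in both of 2 libraries. They were chosen by measured widths and overlap: a footprint of replicate 1 on chromosomes 1 to 19, at least 30 bp wide, had to share at least 50% of its length, both ways, with a footprint of replicate 2 that was also at least 30 bp wide. The rule took 14670 of the 371759 footprints of replicate 1 on these chromosomes, or 3.95%. Of the 152920 footprints that met the same overlap rule at any width, 22750 were 20 to 29 bp wide in both libraries and 83979 were under 20 bp wide in both. These narrower reproducible footprints serve as the comparison below. The study mapped accessible chromatin with DNase-seq, a sequencing assay of the places where added DNase I can reach and cut the DNA of nuclei. It holds 1 group: the left cerebral cortex of male B6CASTF1/J mice, the first-generation hybrid of C57BL/6J and CAST/EiJ, at 14 days of age, with no treatment in the labels. The label of replicate 1 names tissue of 3 males, and that of replicate 2 a single male. Both labels carry the same donor identifier, so the difference between the libraries may not be a spread between animals. With 2 libraries and no second condition no test between conditions was possible. Values are given per library, and 95% Wilson intervals of shares cover the counting of sites only.

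A footprint is a short dip in cutting inside open chromatin, left where a bound protein shields the DNA, and its width follows how much DNA the protein or the complex touches. CTCF is a protein with a long row of zinc fingers that binds at insulators and at the anchors of chromatin loops together with cohesin. Its central fingers read a core motif, and a further, less constant motif before the core is known from part of its sites. RNA polymerase III is the enzyme that transcribes tRNA genes. On those genes the factor TFIIIC binds the A box and the B box inside the gene, and TFIIIB sits just before the first transcribed base.

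The sequences that carry the main pattern are windows around the CTCF word, a consensus of 12 bp for the core motif, read on the strand of the word and from the reference genome GRCm38. Each window runs from 22 bases before the word to 16 after it. The capitals mark the word and, before it, each base that matches TGCANTNCC at 17 to 9 bases before the word, a pattern described further on. The examples are the unmasked, single-copy windows outside annotated UTRs with the highest mean signal of the host peak, first for footprints of 30 to 34 bp in both libraries.
Near Fem1a, chr17:56255940-56255989, minus strand: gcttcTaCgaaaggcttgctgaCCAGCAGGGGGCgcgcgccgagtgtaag
Near Nuak1, chr10:84438188-84438237, minus strand: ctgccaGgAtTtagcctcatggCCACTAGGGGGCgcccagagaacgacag
Near Rcc2, chr4:140714014-140714063, minus strand: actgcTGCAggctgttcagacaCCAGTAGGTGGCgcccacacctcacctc
Near Kif1b, chr4:149307897-149307946, minus strand: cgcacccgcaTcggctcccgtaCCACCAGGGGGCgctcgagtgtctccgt
The second set is of footprints of 40 to 49 bp in both libraries with at least 6 of the 7 fixed letters matched, so the match itself is no finding.
Near Psrc1, chr3:108389436-108389485, minus strand: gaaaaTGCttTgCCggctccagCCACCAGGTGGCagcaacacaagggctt
Near Srxn1, chr2:152112085-152112134, plus strand: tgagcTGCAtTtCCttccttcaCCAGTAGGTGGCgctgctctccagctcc
Near Gm11418, chr11:81613445-81613494, minus strand: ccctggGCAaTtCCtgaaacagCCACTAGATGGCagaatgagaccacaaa
Near Ptma, chr1:86501761-86501810, plus strand: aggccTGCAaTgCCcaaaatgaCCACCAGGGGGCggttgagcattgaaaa
The footprint near Nuak1, a kinase gene, began 7 bases before the word and ended 12 bases after it in both libraries. The footprint near Srxn1, the gene of the antioxidant enzyme sulfiredoxin, began 23 and 25 bases before the word and ended 13 and 12 bases after it. The ends after the word thus lay at similar distances in these examples, and the ends before it did not.

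The widths, which the rule used, are given as a description. The median was 36 bp in replicate 1 and 37 bp in replicate 2, with quartiles of 32 and 44 bp and of 32 and 43 bp, and the widest were 83 and 73 bp. Counts of members were highest at 32 bp, with 1326 and 1320 footprints. All footprints of replicate 1 fell steadily over these widths, from 3017 at 30 bp to 2488 at 32 bp. The part of the limit of 30 bp, set in both libraries, in the high point at 32 bp was not tested. The high point is not read as a preferred width of the members. Counts of members then fell to 419 at 39 bp in replicate 1 and to 534 at 38 bp in replicate 2, and rose again to 677 at 45 bp and to 643 at 42 bp. This rise was also in the full set, where replicate 1 had 650 footprints at 39 bp and 769 at 45 bp and replicate 2 had 690 at 40 bp and 754 at 42 bp. Among members with a relaxed form of the CTCF word the counts were 627, 108 and 381 footprints at 32, 38 and 45 bp in replicate 1, and 600, 165 and 348 at 32, 39 and 45 bp in replicate 2. At 30 bp these members numbered 448 and 538, fewer than at 32 bp. Members without the relaxed form numbered 760 at 30 bp and 699 at 32 bp in replicate 1, and 655 and 720 in replicate 2.

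**Figure D1:**
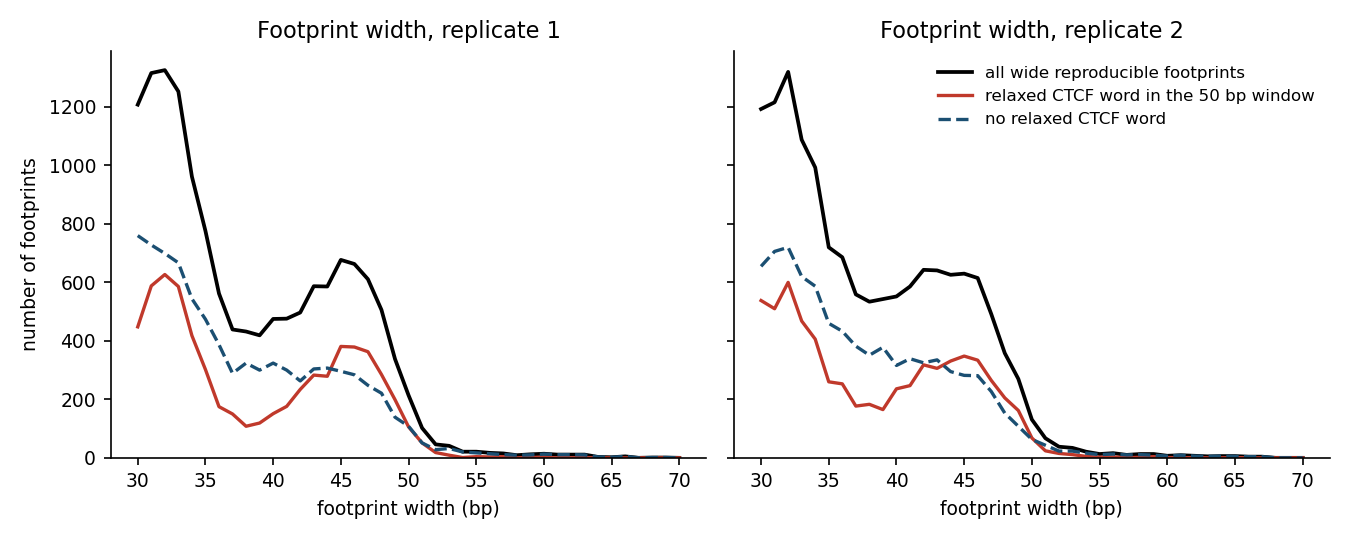
Number of wide reproducible footprints by width in bp, for each library. Black is all of them, red those with the relaxed CTCF word in the 50 bp around the centre, and the blue dashed line those without it. After the high counts next to the limit of 30 bp, replicate 1 rises again from 419 footprints at 39 bp to 677 at 45 bp, and the red line from 108 at 38 bp to 381 at 45 bp.

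The positions were close between the libraries beyond what the rule asked. The same start within 1 bp was found for 59.2% of the members and the same end within 1 bp for 58.8%. Both edges lay within 1 bp for 36.9%, and 10.2% (1495) were identical. The overlap was at least 80% of the wider footprint for 89.2%. Of all 23006 footprints at least 30 bp wide in replicate 1, 63.8% had a wide partner, 25.1% had a narrower partner, 8.9% had only a smaller overlap and 2.23% (512) had none. In replicate 2, with 22423 such footprints, these shares were 65.4%, 26.6%, 6.68% and 1.32%. Near the limit, 31.1% of the 29 bp footprints of replicate 1 and 40% of its 30 bp footprints had a partner of at least 30 bp in replicate 2, so the limit does not separate distinct sets.

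Among the 25 words searched, the CTCF word had the largest difference in percentage points between members and reproducible footprints of 20 to 29 bp. It lay in the 50 bp around the centre, on either strand, in 18.2% of members (2665; 95% interval 17.6% to 18.8%). The share was 4.48% in reproducible footprints of 20 to 29 bp and 0.531% in those under 20 bp. Around the same members, in 50 bp windows centred 75 bp to either side, it was 0.907%. Away from starts the share was 23.9%, and within 1000 bp of a transcription start it was 6.52%. A relaxed word of 11 bp with fewer fixed letters, chosen after the values were seen, lay in 44% of members (6451), 12.9% of those of 20 to 29 bp and 3.75% of the flanking windows. Read the other way, 48.4% of the 5509 reproducible footprints with the CTCF word were wide, against 15.3% of the 2652 with the NRF1 word and 4.04% of the 2548 with the AP1 word.

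Around the CTCF word the edge after the word stood at a similar place in narrow and wide members, and the edge before it at either of 2 places. In footprints of 30 to 34 bp the median distance from the footprint's edge to the word was 6 bases before it in both libraries, and 14 and 13 bases after it. In footprints of 40 to 49 bp it was 22 bases before the word in both libraries and 11 bases after it. An edge at least 16 bases before the word was found in 0.257% and 1.52% of the footprints of 30 to 34 bp, and in 98.2% and 97.5% of those of 40 to 49 bp. The wider class was therefore longer on the side before the core, not on both sides. Footprints under 30 bp are left out by the rule, which limits how short the distances can be. Width is the word plus both distances. With the edge after the word at a similar place, the shares at 16 bases thus follow largely from sorting by width.

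The choice between the 2 edges mostly repeated between the libraries. Of 2660 members with a single CTCF word at the same place inside both footprints, 1084 (40.8%) reached at least 16 bases before it in both libraries and 1293 (48.6%) stayed under 16 bases in both. The remaining 283 (10.6%) were on different sides of 16 bases. The word lay on the plus strand in 49.3% in both libraries. In the promoter members 55% of the words (172 of 313; interval 49.4% to 60.4%) were on the strand of the nearest start.

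**Figure D2:**
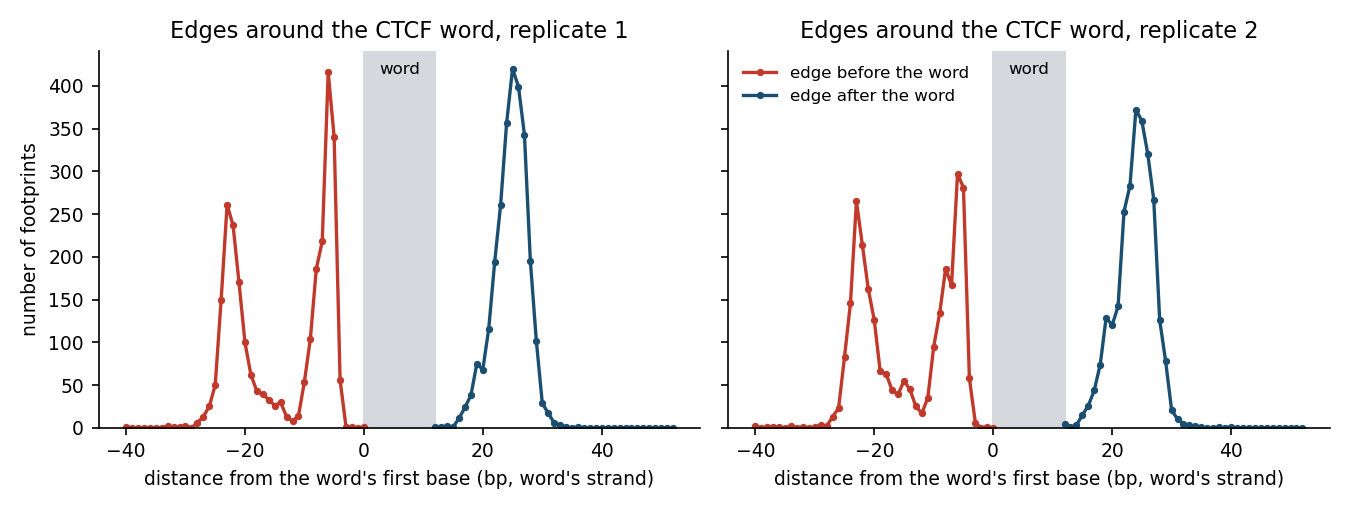
Number of members with their edge at each distance from the first base of the CTCF word, on the word's strand, for each library; grey is the 12 bp word. The red line, the edge before the word, has a peak near 6 bases and another near 22 bases before it, and the blue line, the edge after the word, has a single main peak.

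The bases before the word differed between the narrow and the wide CTCF members, in reference sequence that the rule did not use. In 866 members of 40 to 49 bp in both libraries, compared with 905 of 30 to 34 bp in both, T stood 17 bases before the word in 48% against 20.8%. G stood at 16 bases in 66.1% against 28.2%, C at 15 bases in 57.6% against 24.1%, and A at 14 bases in 55.4% against 29.6%. T stood at 12 bases in 70.9% against 36.7%, C at 10 bases in 64.8% against 25.5% and C at 9 bases in 51.4% against 26.4%. These 7 letters spell TGCANTNCC, which lies inside the stretch that the wide footprints covered and the narrow ones mostly did not. At least 5 of the 7 letters matched in 47.1% of the wide class (408; interval 43.8% to 50.4%) and in 1.55% of the narrow class (14; interval 0.924% to 2.58%). The letters were taken from these same windows, so this is a description.

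The same letters were then counted in members that had not supplied them, those with the relaxed word and without the 12 bp word. At least 5 letters matched in 59.9% of 1267 members of 40 to 49 bp (interval 57.2% to 62.6%) and in 4.08% of 1055 members of 30 to 34 bp (interval 3.04% to 5.45%). The median distance from the footprint edge to the relaxed word after it was 23 bases in the former and 7 bases in the latter, in replicate 1. The relaxed word has 11 bp, so these distances are not set against those of the 12 bp word. Ordered by the number of letters, the share of members at least 40 bp wide in both libraries was 13.4% at 0 letters, 14.6% at 2, 51.7% at 4 and 77.2% at 6. Members with the 12 bp word gave 15.7%, 15.9%, 50.1% and 85%. In both sets the share was somewhat lower at all 7 letters than at 6, 67.6% and 79.3%, and the intervals of 6 and 7 letters overlapped only in the set with the 12 bp word.

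**Figure D3:**
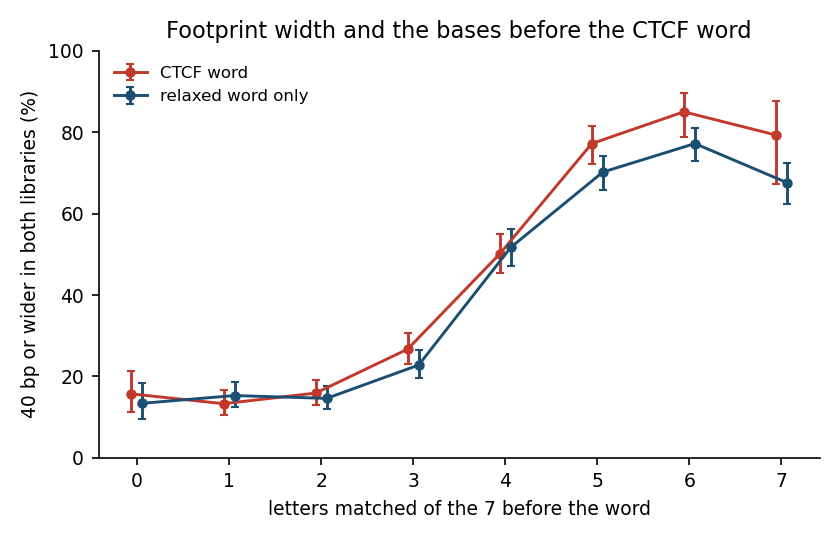
Share of members at least 40 bp wide in both libraries, in percent, by how many of the 7 letters before the CTCF word matched; bars are 95% Wilson intervals. Red is the 12 bp word, whose members supplied the letters, and blue is the relaxed word only. Both lines are low up to 2 letters (15.9% and 14.6%) and high at 6 (85% and 77.2%).

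Other measures moved with the width class. The host peak signal, which is the deposited value of the peak that holds the footprint's centre in that library, had a median of 3.15 in replicate 1 and 2.49 in replicate 2 in the 40 to 49 bp class, and of 2.42 and 1.96 in the 30 to 34 bp class. Bases masked as repeats made up most of the footprint in 2.89% and 6.74% of these classes, and median GC was 56% and 54%. Their part in the width was not tested.

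Distal members without even the relaxed word still held pieces of it. For the 4434 of them, all 7-letter words were counted against the 10362 distal footprints of 20 to 29 bp without the relaxed word. CCACTAG had the largest surplus, with 10.6% of members against 1.58%, followed by AGAGGGA with 7.4% against 2.18% and CACTAGA with 6.2% against 1.02%. CACTAGG stood in 6.11% against 1.17% and CCACCAG in 7.33% against 2.66%. Of these 5 words all but AGAGGGA can be read in the first letters of the core motif. In the 3785 promoter members without the relaxed word the leading one was CCAATCA, the NFY word, in 4.28% against 2.39%. CGTCATC stood in 2.62% against 0.942%. These words were picked for their difference, so no more is read from them.

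The tRNA genes were a second class of sites with members. RefSeq lists 386 tRNA genes on chromosomes 1 to 19 of GRCm38, and 179 of them (46.4%) had a member centred within 100 bp. Of the 231 whose centre lay in a peak of both libraries, 164 (71%) had one. In all 282 members, 1.92% (interval 1.71% to 2.16%), lay within 100 bp of a tRNA gene, compared with 0.149% of reproducible footprints of 20 to 29 bp and 0.21% of those under 20 bp. Within the same distance of other annotated small RNA genes there were 7 members for snRNA, 6 for miRNA, 1 for snoRNA and 0 for rRNA genes. For snRNA the shares were 0.0477% of members, 0.0264% at 20 to 29 bp and 0.0393% under 20 bp. For miRNA they were 0.0409%, 0.101% and 0.0857%, and for snoRNA 0.00682%, 0.0176% and 0.0202%. The rRNA count covers 60 annotated genes, and other copies of rRNA sequence were not searched. The count of 0 therefore does not say that no member lies in rRNA sequence. The counts at tRNA genes were added after sequences of such genes had been seen among the widest members.

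Members took up 2 positions on a tRNA gene. In 135 pairs of member and gene the centre lay before the gene, at a median of 22 bases before its first base (quartiles 29 and 19). In 145 pairs the centre lay inside the gene, at a median of 58 bases from the first base (quartiles 56 and 62), and in 4 pairs it lay beyond the gene. No centre lay in the first 50 bases of a gene. Footprints before the gene were the wider, with medians of 54 bp in replicate 1 and 47 bp in replicate 2. They reached, at the median, from 49 bases before the gene to 7 bases into it. Those inside the gene had medians of 39 and 38 bp and ran from 39 to 78 bases from the first base, so they passed the end of a gene of median length, 72 bp.

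The member inside the gene held the core of the B box, the binding sequence of TFIIIC. The letters GGTTCNA, a core of that box, stood in the footprint of 133 of 145 members inside a gene (91.7%), of 2 of 134 members before a gene (1.49%), and of 0.688% of members away from tRNA genes. The box lies inside the gene, so the contrast between members inside and before a gene largely restates their positions. It is no separate support for a bound factor. Both a member before and a member inside were found at 94 of the 179 genes (52.5%). The examples are the genes of 4 amino acids with both members and the highest mean host peak signal, outside UTRs, printed on the strand of the gene from 60 bases before it to 20 bases after it, with the bases of both footprints of replicate 1 in capitals.
n-TRacg6, tRNA-Arg, chr14:54517636-54517788, plus strand: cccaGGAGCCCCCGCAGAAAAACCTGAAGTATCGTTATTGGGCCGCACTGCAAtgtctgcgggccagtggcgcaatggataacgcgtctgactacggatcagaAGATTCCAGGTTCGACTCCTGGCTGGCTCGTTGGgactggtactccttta
n-TTagt9, tRNA-Thr, chr7:35234750-35234903, minus strand: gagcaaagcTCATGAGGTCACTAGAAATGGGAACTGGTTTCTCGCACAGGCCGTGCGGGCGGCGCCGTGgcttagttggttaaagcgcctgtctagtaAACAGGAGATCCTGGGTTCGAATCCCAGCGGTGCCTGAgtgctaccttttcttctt
n-TLcag4, tRNA-Leu, chr8:94703984-94704146, minus strand: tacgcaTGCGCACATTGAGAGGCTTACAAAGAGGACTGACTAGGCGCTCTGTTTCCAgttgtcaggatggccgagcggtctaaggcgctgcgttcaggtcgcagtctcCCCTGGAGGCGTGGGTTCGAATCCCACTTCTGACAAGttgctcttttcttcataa
n-TStga3, tRNA-Ser, chr10:63429456-63429617, minus strand: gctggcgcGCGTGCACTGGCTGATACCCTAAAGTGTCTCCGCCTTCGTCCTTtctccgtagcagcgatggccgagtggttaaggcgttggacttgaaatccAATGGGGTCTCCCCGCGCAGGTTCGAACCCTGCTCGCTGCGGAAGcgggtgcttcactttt
The footprints before these 4 genes were 49, 60, 51 and 44 bp wide in replicate 1 and 55, 58, 50 and 41 bp in replicate 2. Those inside were 34, 38, 37 and 45 bp wide in replicate 1 and 33, 38, 37 and 42 bp in replicate 2. The host peak signal was 12.8 and 18.6 at n-TRacg6 and 12.2 and 11.8 at n-TTagt9. It was 11.5 and 8.02 at n-TLcag4 and 10.9 and 7.76 at n-TStga3, above the member medians given below in each library.

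**Figure D4:**
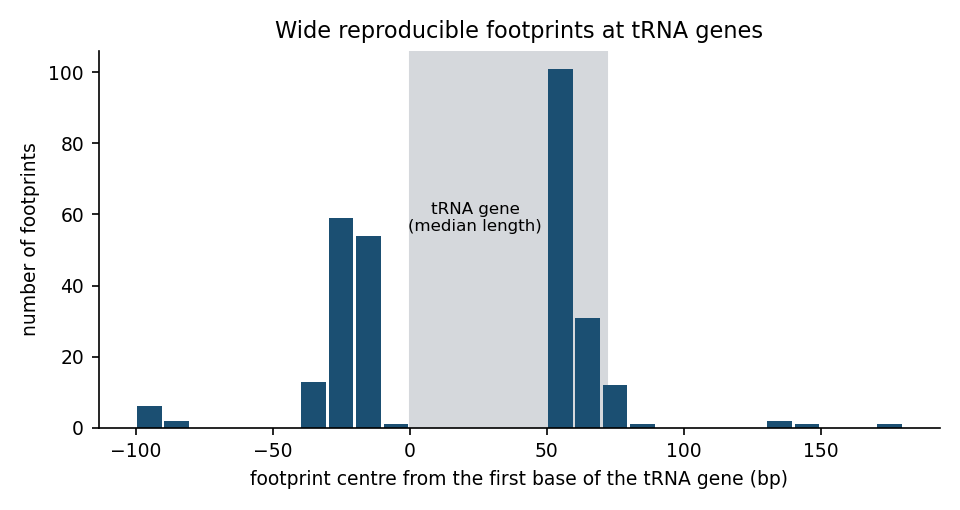
Number of wide reproducible footprints by the position of their centre from the first base of a tRNA gene, in 10 bp bins, replicate 1; grey is a gene of median length. There are 2 main groups of bars, with 135 footprints before the gene and 145 inside it, and no bar over the first 50 bases of the gene.

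By amino acid the genes with a member were spread widely. All 20 standard amino acids had at least 2 genes with a member. The share was 15 of 17 genes for threonine, 17 of 23 for arginine, 8 of 10 for tyrosine and 6 of 7 for phenylalanine. Cysteine had 3 of 57, with a peak of both libraries at only 5 of the 57. Copies of a tRNA gene can share sequence, which may limit where reads are placed, and that was not tested.

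Of the 30 members at least 60 bp wide in both libraries, 20 (66.7%) lay at tRNA genes and 0 held the relaxed CTCF word. Of the 237 at least 50 bp wide in both, 49 (20.7%) lay at tRNA genes, 65 (27.4%) held the relaxed word and 109 (46%) lay within 1000 bp of a start. By mean width the 10 widest included 4 at tRNA genes: those before n-TLtag1 (65 and 67 bp), n-THgtg4 (66 and 65 bp), n-TYgta9 near Agbl5 (64 and 65 bp) and n-TGgcc5 (63 and 66 bp). The widest, on chromosome 4, was 73 bp in both libraries and lay wholly in a masked repeat, and its central 31 bases occur 148 times in the genome. Its host peak signal was 0.89 and 1.4, the lowest of the 10 in replicate 1 and the second lowest in replicate 2. None of the 10 was compared with rRNA sequence outside annotated rRNA genes.

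Among the widest promoter members that at Nfat5, a transcription factor of the response to osmotic stress, differed in width between the libraries, 83 and 59 bp. It lay 70 bp before the start, and its host peak signal was 7.14 and 4.94. The member at Ccdc66 was 68 and 65 bp wide, and its peak had 13.6 and 11.9. Its sequence is printed because it holds NFY words, CCAATCA and on the other strand TGATTGG, within a single footprint, which is in capitals with 15 bases on each side.
Ccdc66, chr14:27508479-27508576, plus strand: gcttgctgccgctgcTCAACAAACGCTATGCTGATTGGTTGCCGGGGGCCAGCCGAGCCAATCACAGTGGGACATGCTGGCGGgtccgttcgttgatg
The member before Leprot was 66 bp wide in both libraries, and its peak had a signal of 13.3 and 16.5.

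Members lay farther from genes' starts than narrower reproducible footprints did. Within 1000 bp of an annotated start lay 32.9% of members (4829; interval 32.2% to 33.7%), against 45% of footprints of 20 to 29 bp and 41.6% of those under 20 bp. Introns held 29.4% of members, exons 3.86% and intergenic sequence 33.8%, compared with 23.5% and 25.9% intergenic in the narrower classes. The median distance to the nearest start was 4134 bp, against 1868 and 2715 bp. With the centres of replicate 2 the promoter share was again 32.9% and the median distance 4137 bp.

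Inside promoters the members were concentrated just before the start. Of the promoter members 72.9% lay before it, and 56.1% lay 200 to 1 bp before it. Footprints of 20 to 29 bp had 69.3% and 54.2%, and those under 20 bp 59.2% and 43.6%. In the 100 bp after the start lay 14.4% of promoter members, against 18% and 22.8%. Members without the relaxed CTCF word made up 78.4% of promoter members. Their median host peak signal was 6.28 and 7.04, against 3.47 and 2.87 for promoter members with that word.

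**Figure D5:**
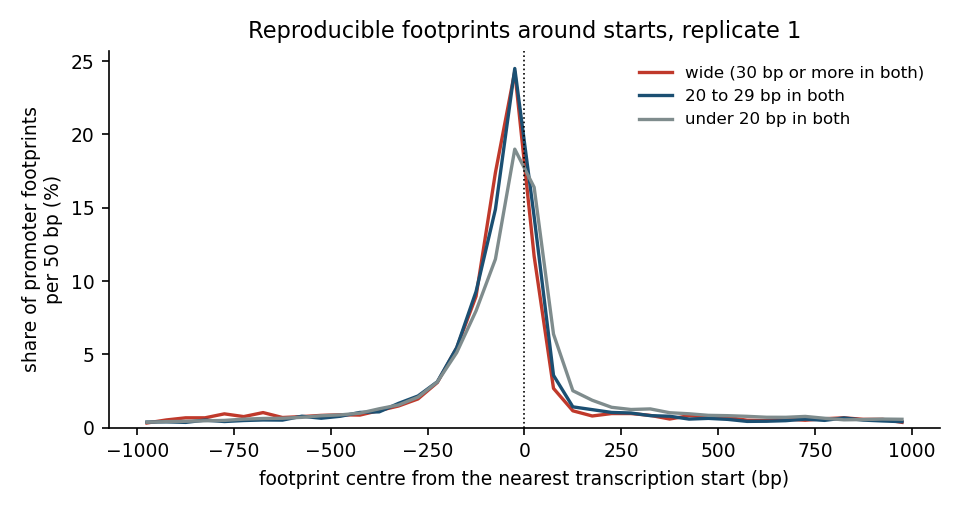
Share of the promoter footprints of each class, in percent per 50 bp, by the signed distance of the centre from the nearest start in replicate 1; negative is before the start. The line of the wide class lies above that of the footprints under 20 bp just before the start and below it after the start, where the first 100 bp hold 14.4% and 22.8%.

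Host peaks of members were among the strong peaks of each library. The median host peak signal was 2.97 in replicate 1 and 2.5 in replicate 2, where all peaks had 0.554 and 0.67. Footprints of 20 to 29 bp had 1.87 and 2.14, and those under 20 bp had 1.12 and 1.33. The scaling of the signal is not given in the sources used here, so levels are compared within a library. A peak of the same library held 95.8% and 95.2% of members, and the strongest 10% of peaks held 56.9% and 46.7% of the members in peaks. Away from starts the difference was larger in proportion, 2.41 and 2.03 against 1.17 and 1.4 for 20 to 29 bp. Most host peaks, 90.9% and 91.3%, held a single member. Signal was not used by the rule, but a stronger peak gives more cuts from which a footprint is drawn, and its part in the width was not tested.

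Between the libraries, the ratio of the signals was lower for member peaks than for the peaks of other reproducible footprints. The sign of a ratio depends on the unknown scale of each library, and the gap between classes of sites does not depend on a scale common to all sites of a library. For 13804 members in a peak of both libraries the median log2 ratio of the signal, replicate 2 over replicate 1, was -0.17 (SD 0.38 over sites). For the other reproducible footprints it was 0.26 (SD 0.4). The members differed among themselves: distal members with the relaxed CTCF word had a median of -0.3, and promoter members without it had 0.19. Footprints of 20 to 29 bp with the same 2 properties had -0.11 and 0.29. The libraries also differ in the number of males named, whose part in this gap was not tested.

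The strongest promoter members by mean host peak signal included several at genes of general cell functions. Rab11b, a small GTPase of recycling endosomes, had members in a peak of signal 20.4 and 31.3, among them one 42 and 49 bp wide with an NFY word and one 55 and 54 bp wide at the start. Dynlt1b, a dynein light chain, had 19.2 and 28.9, with a member of 49 and 53 bp that held the NRF1 word GCGCNTGCG and one of 37 and 40 bp with the SP and KLF word GGGCGGGG. Snrnp70, a protein of the U1 splicing particle, had an NRF1 word in a member of 37 and 39 bp and a signal of 17.7 and 23.8. Acin1, an RNA-binding protein of splicing complexes, had a member of 41 and 42 bp and a signal of 19.9 and 22.1. Ip6k1, an inositol phosphate kinase, had 16.7 and 24.7. The member near Gm15564, 45 and 33 bp wide, had 27.6 and 17.7. Of the 100 strongest promoter members 7 held the relaxed CTCF word. The member near Gm21769, 44 bp wide in both libraries with a CTCF word and 4 copies of its centre, had 20.9 and 21.4.

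The strongest distal members were more mixed. The strongest, intergenic on chromosome 6, had a signal of 25.7 and 17.1, a width of 38 and 37 bp, and a centre with 4 copies in the genome. The fourth, in an intron of Il31ra, was 59 and 45 bp wide with a signal of 19.2 and 13.4, and its centre had 2 copies. The member at -72610 bp from the nearest start, that of Irf2bp2, had widths of 31 and 34 bp and a signal of 14.2 and 18.6. An SRF word stood in the 50 bp around its centre, and only part of that word lay inside the footprint. The member in an intron of Igf1r, the receptor of insulin-like growth factor 1, held an NFY word, with 34 and 32 bp and a signal of 12.1 and 16. Of the 100 strongest distal members 21 held the relaxed CTCF word and 8 had a centre with more than 1 copy. Over all members 3% had a centre of 31 bases with more than 1 copy, against 1.25% of footprints of 20 to 29 bp. These copies are counted in the reference genome only. Reads from copies missing there could be placed on a strong promoter or distal member, and that was not tested. It applies also to copies of rRNA sequence. The members on chromosome 6, in Il31ra and near Gm15564 were not compared with rRNA sequence outside annotated rRNA genes.

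In promoters the words of general activators were frequent, though not all were more frequent than in narrower footprints. NRF1, a factor of nuclear genes for mitochondria and of many housekeeping promoters, had its word in 7.87% of promoter members (380; interval 7.14% to 8.66%), against 6.18% of footprints of 20 to 29 bp and 1.95% of those under 20 bp. The NFY word, for the trimer that binds the CCAAT box, stood in 3.44%, 2.26% and 1.58%. The SP and KLF word stood in 10.5% of promoter members, below the 14.9% of footprints of 20 to 29 bp and above the 6.67% of the narrowest. The CRE word TGACGTCA, read by CREB and ATF factors, stood in 2.05%, 1.95% and 0.383%, and the ETS word ACTTCCGG in 1.22%, 1.43% and 1.1%.

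Away from starts the words differed in direction. The AP1 word TGANTCA, read by FOS and JUN dimers, stood in 0.854% of distal members, 2.01% of footprints of 20 to 29 bp and 2.86% of those under 20 bp. The ASCL word CAGCTG, an E-box of proneural factors, stood in 2.86%, 6.15% and 6.33%. The NFI word, a long palindrome, stood in 0.61% of distal members and in 4.04% and 0.355% of the narrower classes, and the RFX word in 0.0406%, 0.695% and 0.053%. The words of these 2 factors were thus commonest at 20 to 29 bp. The SOX word stood in 0.498% of distal members, 0.392% of footprints of 20 to 29 bp and 0.498% of those under 20 bp, and the SRF word in 0.234%, 0.176% and 0.245%, with overlapping intervals. The YY1 word AANATGGCG was commoner in distal members, with 0.559%, 0.28% and 0.0979%. The NEUROD word CAGATGG stood in 5.21%, 4.83% and 3.96% but can overlap the CTCF core. In distal footprints without the relaxed CTCF word it stood in 4.65%, 4.28% and 3.68%. In 65.8% of members no word of the list was found, and 57.6% held a listed word or the relaxed CTCF word. The absence of a word says only that these letters are not in the window.

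Protein-coding genes with a member within 1000 bp of a start numbered 3684 of 20807, or 17.7%. All 3684 were among the 14134 genes with a promoter peak in both libraries, of which they made up 26.1%. The gene lists are read beside these shares, with no test. Housekeeping genes had a member at 10 of 14, splicing factors at 9 of 16, cohesin and chromatin factors at 10 of 18 and genes induced by neuronal activity at 8 of 16, and the intervals of these 4 lists lay above 26.1%. Of the genes for factors that read the words 15 of 39 had one, and of respiratory chain genes 6 of 15. The intervals of these 2 lists, 24.9% to 54.1% and 19.8% to 64.3%, include 26.1% and lie above 17.7%. The lists are short, and the strength of their promoter peaks was not matched.

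The share of genes with a member was not set apart from that of all protein-coding genes for any list of cell type markers. The interval of each such list, and of the synaptic genes and the markers of other tissues, includes 17.7%. These intervals also include the 26.1% of genes with a promoter peak, except that of microglia, 0% to 24.2%, which lies below it. Markers of all neurons had 3 of 13, excitatory neurons 2 of 16 and inhibitory neurons 1 of 16. A promoter peak in both libraries was found for all 13, all 16 and 14 of the 16 of these genes. Astrocyte markers had 4 of 12, the oligodendrocyte lineage 1 of 11, endothelial cells 1 of 12, microglia 0 of 12 (with a promoter peak for 9), synaptic genes 4 of 15 and markers of other tissues 1 of 10. Gfap, the intermediate filament of astrocytes, had a member with the CTCF word, 35 and 36 bp wide, 86 bp before the start, in a peak of 3.14 and 2.08. Slc1a2, the glial glutamate transporter, had one with 32 and 31 bp, 13 bp before the start, and a signal of 1.25 and 1.31. Pdgfra, the receptor of oligodendrocyte precursors, had a CTCF word in a member of 39 and 31 bp, 451 bp before the start. Calb2, the calcium-binding protein calretinin of some inhibitory neurons, and Elavl4, a neuronal RNA-binding protein, had members with the relaxed word, of 47 and 48 bp and of 45 and 42 bp.

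Other lists gave the following examples, all among the up to 4 genes of their list with the highest mean host peak signal. Smarca4, the ATPase of the BAF remodeling complex, had an NRF1 word in a member of 35 and 36 bp, with a signal of 12 and 16.2. Smc3, a cohesin subunit, had an SP and KLF word in one of 34 and 31 bp, with 10.7 and 12.1. Rplp0, a ribosomal protein, had a member of 40 bp in both libraries, with 14.9 and 15, and Atp5b, a subunit of ATP synthase, one of 45 and 50 bp, with 10.2 and 12.7. Among genes induced by activity Jun had a member of 46 bp in both libraries, with 12.3 and 17.3. Arc, a synaptic protein, had one with the relaxed CTCF word, of 40 and 38 bp, with 7.08 and 8.4.

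Most genes with a member had a single one. A single member was found at 2744 of the 3684 genes, 2 members at 740, 3 at 160 and 4 or more at 40. Gys1, the glycogen synthase of muscle and brain, had 7 over its 6 annotated starts, and Ruvbl2, an ATPase of chromatin complexes, had 5. These neighbours on chromosome 7 overlap, so members can count for both. Idh1, an isocitrate dehydrogenase, Kat6b, a histone acetyltransferase, Hexim2, a regulator of transcript elongation, Pik3r2, a PI3-kinase subunit, Agbl5 and Fmc1 had 5 each. Jun had 4 at its single annotated start and Arid1a, a BAF subunit, 4 over 5 starts.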

How the data were processed

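DNase-seq peaks and footprints of both libraries were used on GRCm38 (mm10). The peak signal is a value per peak deposited by the authors; no source used here gives its scaling, the aligner or the peak and footprint callers. Footprints were deposited by the authors as positions. From these, widths, reciprocal overlap, host peaks, GENCODE M21 starts and RefSeq sequence, masking and tRNA genes were joined with Python 3.11.15, NumPy 2.4.6, pandas 2.3.3 and SciPy 1.17.1, and the counting was tested on simulated data. Words were searched on both strands in the 50 bp around each centre. A promoter is within 1000 bp of a start. Named members are the 10 widest, the 10 strongest promoter and distal ones, the strongest per word, the 10 genes with the most members and, per list of 15 gene lists, the strongest up to 4; examples at CTCF words and tRNA genes were chosen after values were seen. The members and lists were chosen with earlier results of these data known. The relaxed CTCF word, the letters before the CTCF word, the tRNA and B box counts, the copies and the 7-letter words were added after values were seen. No p-value is given. The 2 libraries are samples of 1 group, and read depth was not used here.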

Additional observations from a re-analysis of the deposited data

How the results depend on the processing

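The number of members depended mainly on the width limit: 14670 became 28865 at 25 bp and 7212 at 35 bp, and each library alone, without the other replicate, held 22423 to 23006 wide footprints. The promoter share of 32.9% was 28.6% with a window of 500 bp, 42.5% with 2500 bp, 29.1% with protein-coding starts only and 31.8% to 36.6% in single libraries. The median host peak signal, 2.73 as a mean of both libraries, was 2.42 at 25 bp and 2.4 to 2.65 in single libraries. The CTCF word's share of 18.2% was 14.1% at 25 bp, 13.7% to 15.4% in single libraries and 44% with the relaxed word, which was chosen after seeing the data. Median GC was 56% and became 53.8% in windows of 80 bp. Genes with a member, 3684, became 6454 at 25 bp, 1932 at 35 bp and 5016 to 5630 in single libraries. No paired analysis was possible because there is only 1 group. With 2 libraries, and depth unknown here, the spread between animals cannot be given.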
